A study of Mus musculus with 16 samples.

Results

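The miR-183 cluster is a set of 3 microRNAs, mmu-miR-183, mmu-miR-96 and mmu-miR-182 (miR-183, miR-96 and miR-182 from here on), whose hairpins lie together on mouse chromosome 6. They were taken by name from single-colour Agilent mouse miRNA arrays of 16 liver samples, and are 3 of the 566 mouse miRNAs those arrays measured. The mice were males of the inbred strain C3H/HeJ, in which liver tumours arise readily, and the samples fall into 4 groups: 7 Ctnnb1-mutated tumours, 3 Ha-ras-mutated tumours, 3 control livers of the phenobarbital arm and 3 untreated control livers. Ctnnb1 is the gene of beta-catenin, which carries Wnt signals to the nucleus, Ha-ras that of a GTPase that drives the MAP kinase cascade, and phenobarbital is a tumour promoter of rodent liver. The Ctnnb1 tumours and their controls had phenobarbital, and the Ha-ras tumours and the untreated controls had none. Tumours were started with diethylnitrosamine, a liver carcinogen, given by injection at 10 or 90 µg per g at 2 or 6 weeks of age in the series' design text. The same text gives a diet with 0.05% phenobarbital, or without it, for 28 to 36 weeks, the sample labels give 27 weeks, and the treatment protocol gives drinking water for 28 days, so dose, age and duration are not settled for any sample. The labels do not say whether the control livers received the carcinogen, nor whether replicates came from separate animals, and p-values then measure only the spread between these samples, which may be technical. In whole tissue, fewer cells that make a miRNA and less of it per cell cannot be told apart.

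The members of the cluster are cut from a shared primary transcript, and each guides the silencing complex to transcripts that pair with its seed, bases 2 to 8 from the 5′ end. The cluster is best known from sensory organs, where it is abundant in hair cells and photoreceptors, and changes in the miR-96 seed cause hearing loss in mice and people. Outside the sense organs, miR-96 and miR-182 have been reported to repress Foxo1, a transcription factor of hepatic glucose production, and the cluster has been reported as raised in human hepatocellular carcinoma. In human liver cancer cells beta-catenin has been reported to activate its transcription.

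The mature sequences show how close the members are, and that they are not interchangeable at the seed. All 3 matched RefSeq by name, and the sequences and coordinates are those of RefSeq on GRCm38.p6, on the minus strand for the members, with the seed in capitals. A miRNA encoded elsewhere, miR-1271, is shown because it has the seed of miR-96.
mmu-miR-183-5p: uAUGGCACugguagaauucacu
mmu-miR-96-5p: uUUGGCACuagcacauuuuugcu
mmu-miR-182-5p: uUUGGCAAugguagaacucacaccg
mmu-miR-1271-5p: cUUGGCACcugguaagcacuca

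The positions are chr6:30169711-30169732 for miR-183, chr6:30169506-30169528 for miR-96 and chr6:30165962-30165986 for miR-182. From miR-183 to miR-96 the seed differs by A2U, counted from 1 at the 5′ end, and 6 of 7 seed bases are shared. From miR-96 to miR-182 it differs by C8A, again with 6 of 7 shared, and from miR-183 to miR-182 by A2U and C8A, with 5 of 7 shared. Behind the seed, from base 9 on, the order of likeness is another. Laid side by side without gaps, miR-183 and miR-182 share 12 of 14 bases there, while miR-183 and miR-96 share 6 of 14. Among the 1679 mature mouse sequences of the RefSeq table, miR-96 and miR-1271 were the 2 with the seed UUGGCAC, and miR-183 and miR-182 had theirs alone. The hairpins of miR-183 and miR-96 lie 116 bases apart, the hairpin of miR-182 follows 3453 bases further on, and all 3 fall within the host gene Mirc35hg, a long non-coding RNA gene at chr6:30158640-30174125. The TCF/LEF motifs CTTTGAT and CTTTGTT, searched on both strands, have no match in the 300 bases around the start of Mirc35hg, while 9.33% of 32851 RefSeq promoter windows of that length hold at least 1. That describes this window only.

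Each member had 2 probes, with 10 spots per probe on an array. Values are given as the scanner software's background-subtracted spot signal, averaged over the spots of a probe that were not marked as outliers and scaled to a common level between arrays, on the linear scale. A probe counted as detected on an array where more than 50% of those spots were well above background, and a miRNA where at least 1 of its probes was. Between 83 and 117 mouse miRNAs were detected on an array, 72 of the 566 on all 16 arrays and 416 on none. The negative control spots averaged 3.03 to 8.33 scaled units on an array with an SD of 2.98 to 9.47, and the lowest detected signal of an array lay between 15.5 and 43.3 units. The number of arrays and this background set the precision. Within a group, arrays correlated across miRNAs at 0.926 to 0.993. Slides held groups unequally: all 7 Ctnnb1 tumours shared slide 1 with Ha-ras tumour replicate 1, slide 2 held 2 Ha-ras tumours, 2 phenobarbital controls and 1 untreated control, and slide 3 held 1 phenobarbital control and 2 untreated controls.

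The 3 members of the cluster differed in whether they could be measured at all. miR-96 was detected on 4 of 7 Ctnnb1 tumour arrays and on 3 of 3 Ha-ras tumour arrays, against 0 of 3 phenobarbital control arrays and 0 of 3 untreated control arrays. miR-183 was detected on 2 of 3 Ha-ras tumour arrays and on none of the other 13. miR-182 was not well above background on the 16 arrays. Detection was called on spots before scaling, so it also depends on the brightness of the array. The brighter probe of miR-183 was detected in Ha-ras tumour 1 at 18.8 scaled units and not in Ctnnb1 tumour 4 at 20.2. That of miR-96 was detected in Ctnnb1 tumour 7 at 31.4 units and not in phenobarbital control 4 at 32.3. The part of array brightness in these counts was not tested. Of the 566 mouse miRNAs, miR-96 was the only one detected on all 3 Ha-ras tumour arrays and on no control array of either arm, a pattern picked out after its values were seen. That pattern depends on the detection rule: the scanner software's own flag also marks miR-96 as detected in phenobarbital controls 4 and 6 and in Ctnnb1 tumour 3, and in none of the untreated controls. On the deposited log2 table of the authors miR-96 was at 4.48 and 3.08 in those 2 phenobarbital controls and at the table's lowest value of -1 in phenobarbital control 5. On the same table it was at -1 in Ctnnb1 tumours 1 and 6 and between 2.00 and 6.31 in the other 5.

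**Figure D1:**
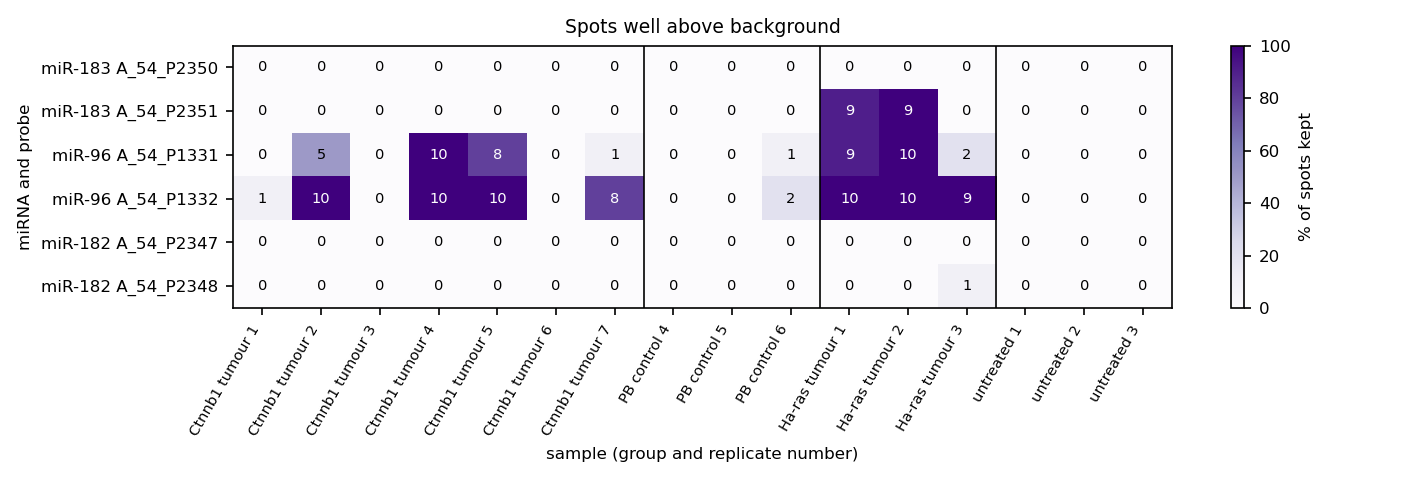
Number of spots well above background for each probe (down the page) on each array (across, by group and replicate number); the colour gives the share of the spots kept, in percent. Probe A_54_P1332 of miR-96 stands out in all 3 Ha-ras tumours and in Ctnnb1 tumours 2, 4, 5 and 7. Its other probe, A_54_P1331, is detected in Ha-ras tumours 1 and 2 and in Ctnnb1 tumours 4 and 5. Of miR-183, 1 probe stands out in Ha-ras tumours 1 and 2.

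miR-96, the member with the hearing phenotype, gave the highest probe signals of the cluster. Signals of different probes do not rank the members by abundance: the 2 probes of miR-183 alone averaged 8.44 and 20.9 units in Ha-ras tumours. The brighter probe of miR-96, A_54_P1332, had 11.3, 35.5, 14.7, 74.2, 63.8, 8.40 and 31.4 units in Ctnnb1 tumours 1 to 7, against 32.3, 11.6 and 22.8 units in phenobarbital controls 4 to 6. In the other arm it had 56.3, 74.8 and 50.6 units in Ha-ras tumours 1 to 3, against 12.2, 15.1 and 9.28 units in untreated controls 1 to 3. All Ha-ras tumours lay above all untreated controls, while the Ctnnb1 tumours spread from below the lowest to above the highest phenobarbital control.

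The dimmer probe, A_54_P1331, gave the same picture at lower signal. It had 33.9, 49.7 and 31.3 units in Ha-ras tumours 1 to 3, against 3.97, 4.88 and 6.03 units in untreated controls 1 to 3. In Ctnnb1 tumours it ran from 7.10 to 50.9 units with a median of 21.6, against 8.43 to 17.5 units in phenobarbital controls. Replicates 4 and 5 of the Ctnnb1 tumours were again the highest of their group, and replicates 1, 3 and 6 again the lowest. On this probe alone, 2 of 3 Ha-ras tumour arrays and 2 of 7 Ctnnb1 tumour arrays passed the detection rule.

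**Figure D2:**
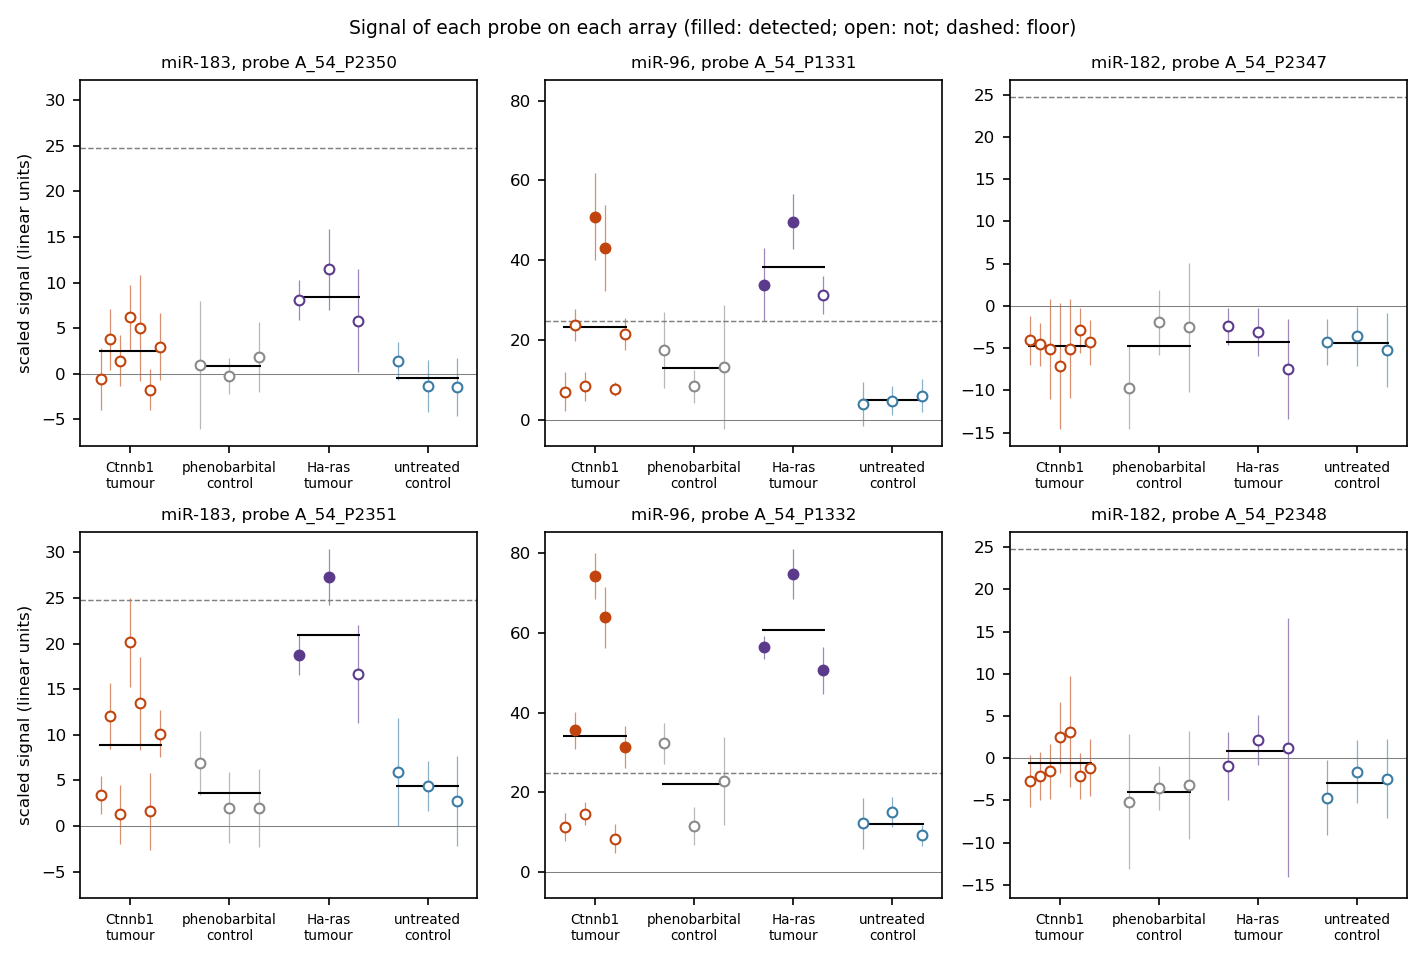
Scaled signal (linear units) of both probes of each member on each array, by group; filled points are detected, open points are not, thin bars are the SD between spots of the probe, black lines are group means and the dashed line is the floor of 24.8 units used for log2 values. Both miR-96 probes separate Ha-ras tumours from untreated controls, the miR-183 probes do so at lower signal, and the miR-182 probes lie around 0 in every group.

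For the test across miRNAs, a floor of 24.8 units was set, at the median of the arrays' lowest detected signals, and log2 values were taken. limma was then fitted over 96 miRNAs, each detected on all arrays of 1 group or more. Of the 3 members, 1 passed that filter: miR-96 entered through the Ha-ras tumours, so a difference there was built into its entry, and miR-183 and miR-182 have no fitted value.

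In Ha-ras tumours miR-96 was detected on every array, and in untreated controls on none. Its log2 level was 5.45, 5.93 and 5.31 in the 3 Ha-ras tumours, and at the floor of 4.63 in all 3 untreated controls. The means were 5.56 ± 0.32 in Ha-ras tumours and 4.63 in untreated controls (SD, n = 3 each; the floor sets the SD of the controls to 0). The log2 difference was 0.93 (SE 0.32, 95% confidence interval 0.26 to 1.61), with a limma adjusted p of 0.0374. That p is conditional on the filter, which admitted miR-96 because it was detected in all Ha-ras tumours. In a fit of all 566 miRNAs without the filter the difference was the same and the adjusted p 0.274. With the untreated controls not well above background, the Ha-ras mean was at least 1.76-fold higher, set against each control array's lowest detected signal. Of the 96 tested, 9 miRNAs were called higher here with the filter (9.38%), miR-96 among them, and it ranked 7 among the 96 by its difference. A further 19 were called lower, which makes 28 calls in all (29.2%), and the median difference of all 96 was -0.06. Scaled on the 75th percentile of all mouse probes instead, that median moved to 0.28 and the split of calls to 12 higher and 0 lower. With that scaling the difference of miR-96 was 1.40 (limma adjusted p 0.00460). Only 11.7% to 16.5% of an array's spots, controls aside, were well above background. The percentile of all mouse probes therefore lies among signals near background, which limits this setting wherever it is used below.

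The call for miR-96 in Ha-ras tumours did not hold under every setting. Of 18 other settings, not counting single replicates left out, 10 kept the call. All 18 gave a difference above 0, but with all 3 untreated controls at the floor that direction was largely set in advance. With the floor raised to the highest such signal of any array the difference was 0.27 (limma adjusted p 0.178), and with normexp background correction 0.31 (0.325). With slide as a fixed block it was 0.96 (limma adjusted p 0.235), and within slide 2, with 2 Ha-ras tumours and 1 untreated control, 0.99 (0.151). Leaving out Ha-ras tumour replicate 1 or 2 gave limma adjusted p-values of 0.0652 and 0.151, and leaving out untreated control replicate 1, 2 or 3 gave 0.0811, 0.0852 and 0.0963. In the scaled signal before the floor, the means were 49.4 ± 11.3 units in Ha-ras tumours and 8.58 ± 1.23 units in untreated controls (SD, n = 3 each), and the groups did not overlap. An exact two-sided permutation test gave p = 0.1, the smallest that 3 against 3 allows. On the authors' deposited table miR-96 was at 6.11, 6.42 and 6.11 in the Ha-ras tumours and at -1 in all 3 untreated controls. Across all 566 mouse miRNAs, 5.12% had every Ha-ras tumour above every untreated control, and among the members miR-96 and miR-183 did.

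In Ctnnb1 tumours miR-96 varied more between tumours than between the groups. Its scaled signal was 9.22, 29.7, 11.5, 62.6, 53.5, 8.10 and 26.5 units in Ctnnb1 tumours 1 to 7, against 24.9, 9.99 and 18.0 units in phenobarbital controls 4 to 6. In 4 of 7 tumours it lay above all phenobarbital controls, and in 2 it lay below all of them. No member had all Ctnnb1 tumours above all phenobarbital controls, as 1.77% of the 566 miRNAs did. The mean log2 level was 5.04 ± 0.55 (n = 7) in Ctnnb1 tumours, 3 of which were at the floor, and 4.69 ± 0.11 (SD, n = 3) in phenobarbital controls, 2 of which were at the floor. The log2 difference of 0.34 (SE 0.27, 95% confidence interval -0.23 to 0.91) did not pass the limma test (adjusted p 0.471), and of the 96 miRNAs tested 8.33% were called in this comparison, all 8 of them lower in tumours. The exact two-sided permutation test of the scaled signal gave p = 0.533. No slide held both groups, so slide and group could be parted only through the other groups: with slide as a fixed block the difference was 0.50 (limma adjusted p 0.823).

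The tumour kinds were also set against each other, a comparison that mixes the mutation with phenobarbital. miR-96 had a log2 level 0.53 lower in Ctnnb1 tumours than in Ha-ras tumours (log2 difference -0.53, SE 0.27, 95% confidence interval -1.10 to 0.04), which did not pass the limma test (adjusted p 0.160), while 30.2% of the 96 miRNAs were called. Ctnnb1 tumour replicate 4, at 62.6 units, lay just above the highest Ha-ras tumour, at 62.2 units. Tumour 5 lay within the Ha-ras range of 40.9 to 62.2 units, and the other 5 lay below it. The groups overlapped for every member, so none had all tumours of one kind above all of the other. All Ctnnb1 tumours lay above all Ha-ras tumours for 9.01% of the 566 miRNAs, the direction opposite to the difference of miR-96. A call of miR-96 appeared with scaling on all mouse probes (-1.12, limma adjusted p 0.00395), with quantile normalization (-0.71, adjusted p 0.0274) and without Ctnnb1 tumour replicate 4 (-0.68, adjusted p 0.0365). The limma p-values of this comparison are conditional on the filter too. It admitted miR-96 because it was detected in all Ha-ras tumours, so a lower level in Ctnnb1 tumours was partly built in. Within slide 1, with 1 Ha-ras tumour, the difference was -0.41 (limma adjusted p 0.760). Whether the tumour effect itself differed between the arms was tested as an interaction: the Ha-ras effect minus the Ctnnb1 effect was 0.59 (SE 0.41, 95% confidence interval -0.29 to 1.48, limma adjusted p 0.475), and 2.08% of the 96 miRNAs were called.

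Between the control livers, miR-96 had 24.9, 9.99 and 18.0 units in phenobarbital controls and 8.10, 9.97 and 7.66 units in untreated controls. The groups did not overlap, but phenobarbital control 5 and untreated control 2 were almost level. Their difference of 9.07 units gave an exact two-sided permutation p of 0.1, again the smallest possible, and 8.13% of the 566 mouse miRNAs had all phenobarbital controls above all untreated controls. With scaling on all mouse probes the difference was 6.13 units, with an exact permutation p of 0.2. In the floored fit the log2 difference was 0.06 (95% confidence interval -0.61 to 0.74, limma adjusted p 0.953). In this comparison 0 of 96 miRNAs were called by limma, and 6 had an unadjusted p under 0.05.

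**Figure D3:**
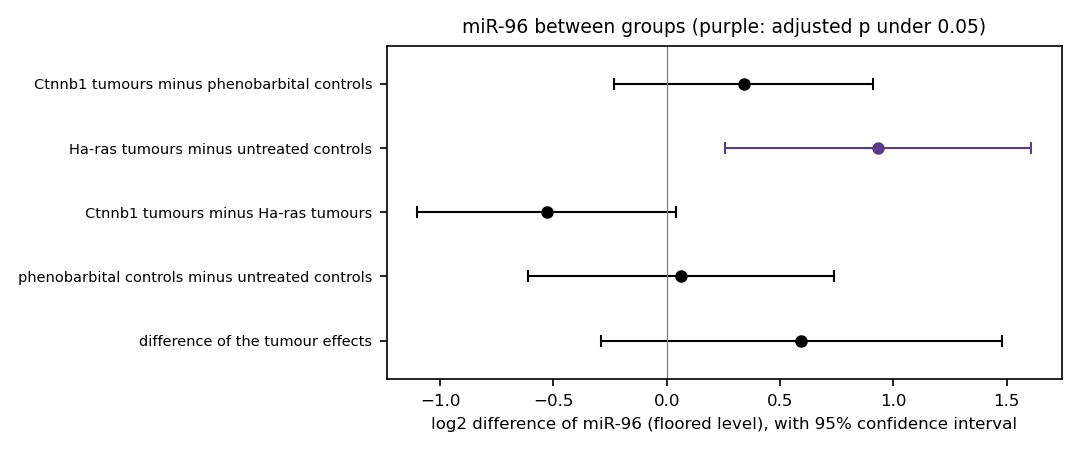
Log2 difference of miR-96 in each comparison (points) with its 95% confidence interval (bars), on the floored log2 scale; the last line is the Ha-ras effect minus the Ctnnb1 effect. The interval of Ha-ras tumours against untreated controls lies above 0, and the other 4 include 0.

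miR-183, the member that gives the cluster its name, was seen at lower signal. It was detected only in Ha-ras tumours, under a rule that depends on the brightness of the array. Its brighter probe, A_54_P2351, had 18.8, 27.3 and 16.7 units in Ha-ras tumours 1 to 3, against 5.89, 4.40 and 2.77 units in untreated controls 1 to 3. In Ha-ras tumour 1, 9 of 10 spots were well above background, in tumour 2 all 9 spots kept, and in tumour 3 none of 10. In Ctnnb1 tumours 1 to 7 this probe had 3.38, 12.1, 1.27, 20.2, 13.5, 1.59 and 10.1 units, with 0 spots well above background, against 6.86, 2.01 and 1.95 units in phenobarbital controls. The other probe, A_54_P2350, was not detected on any array and reached at most 11.5 units, in Ha-ras tumour 2.

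Averaged over its probes, miR-183 had 14.7 ± 4.2 units in Ha-ras tumours and 1.94 ± 1.52 units in untreated controls (SD, n = 3 each). The groups did not overlap, and the difference of 12.7 units had an exact two-sided permutation p of 0.1, the smallest possible. No fold is given: the detected Ha-ras tumours did not lie above the bound that the control arrays' lowest detected signals set. Ctnnb1 tumours had 5.65 ± 4.91 units (n = 7), against 2.22 ± 1.54 units in phenobarbital controls (n = 3), a difference of 3.43 units (exact two-sided permutation p = 0.3). Ctnnb1 tumours were 9.02 units below Ha-ras tumours (exact two-sided permutation p = 0.0333, where 0.0167 is the smallest possible), and the groups overlapped through Ctnnb1 tumour 4, at 13.2 units. That p is 1 of 12 such tests over the members and comparisons and is not adjusted for their number. It was 0.0667 with scaling on the median, 0.0500 with outlier spots kept, and 0.250 within slide 1. Between the controls the difference was 0.28 units (exact two-sided permutation p = 0.7). On the authors' deposited table miR-183 was at 4.48 and 4.56 in Ha-ras tumours 1 and 2 and at that table's lowest value of -1 in the other 14 samples.

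miR-182, the third member and with miR-96 the reported repressor of Foxo1, had a negative mean signal in every sample. Its scaled signal was -1.67, -0.46 and -3.11 units in Ha-ras tumours 1 to 3, against -4.47, -2.60 and -3.84 units in untreated controls 1 to 3. In Ctnnb1 tumours it ran from -3.39 to -0.96 units, against -7.43 to -2.74 units in phenobarbital controls. In none of the 4 comparisons did the groups separate on the mean of both probes, with exact two-sided permutation p-values of 0.2 to 0.8. Of all spots of its 2 probes over the 16 arrays, 1 was well above background, in Ha-ras tumour 3. Probe A_54_P2348, detected on no array, ran from -0.92 to 2.16 units in Ha-ras tumours and from -4.68 to -1.60 units in untreated controls. In Ctnnb1 tumours it ran from -2.70 to 3.14 units, against -5.16 to -3.16 units in phenobarbital controls. On this probe the tumours of both arms lay above their controls, at signals of at most 3.14 units, where the negative control spots averaged 3.03 to 8.33 units. Values below 0 lie under the local background, so they bound the level from above by the detection limit only, and no order of miR-182 levels between groups is read from them.

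The signals of miR-96 and miR-183 were correlated from tumour to tumour, although miR-183 was below detection in every Ctnnb1 tumour. Its signal there, -0.07 to 13.2 units, stands beside averages of 3.03 to 8.33 units for the negative control spots over the 16 arrays. Within the 7 Ctnnb1 tumours, all on slide 1, miR-96 and miR-183 scaled signals had a Pearson correlation of 0.961 (permutation p = 0.000794, adjusted 0.00476 over 6 relations) and a Spearman correlation of 0.964 (permutation p = 0.00278, adjusted 0.0167). Without replicates 4 and 5, the farthest from the median of miR-96, r was 0.993 over the remaining 5. Both signals carry the same array's scaling factor, and both ran against the brightness of the array. Before scaling r was 0.941 (permutation p = 0.00556, adjusted 0.0124) and rho 0.821 (permutation p = 0.0341, adjusted 0.0410), and r was 0.868 without replicates 4 and 6. miR-96 and miR-182 had r = 0.669 and rho = 0.5 (permutation p = 0.155 and 0.267, the same after adjustment), and r was -0.07 without replicates 4 and 5: that relation rests on those 2 tumours.

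**Figure D4:**
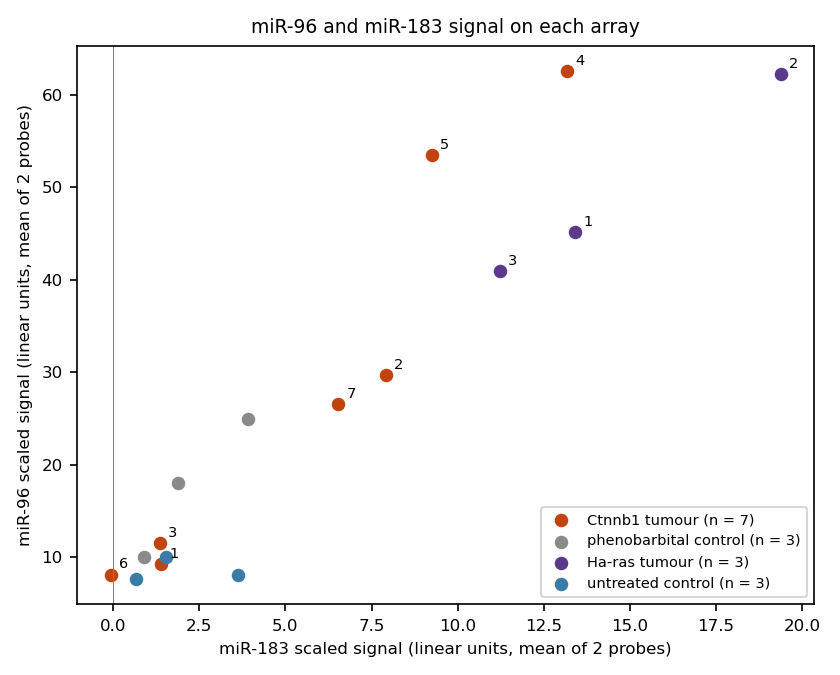
Scaled signal of miR-96 (y axis) against that of miR-183 (x axis), each the mean of 2 probes in linear units, on the 16 arrays; colours are groups and digits are tumour replicates. Ctnnb1 tumours 1, 3 and 6 lie among the controls, and tumours 4 and 5 reach the Ha-ras tumours on the miR-96 axis.

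The overall brightness of the array ran against these values in Ctnnb1 tumours. Among Ctnnb1 tumours, the array's 75th percentile before scaling ran against the scaled signal of miR-96 (r = -0.928, permutation p = 0.00635, adjusted 0.0124; rho = -0.857, permutation p = 0.0238, adjusted 0.0410; r = -0.906 without replicates 1 and 5). It also ran against miR-183 (r = -0.906, permutation p = 0.0103, adjusted 0.0124) and against miR-96 before any scaling (r = -0.905, permutation p = 0.00873, adjusted 0.0124). For both, rho was -0.821 (permutation p = 0.0341, adjusted 0.0410), and without replicates 1 and 5 r was -0.929 and -0.883. Scaling lowers the signals of an array with a high percentile, so a negative relation with the scaled signals was partly built in. The p-values of the scaled relations do not allow for that. The relation before scaling is free of it, and was not tested for miR-183. Ctnnb1 tumours 4 and 5, the highest in miR-96, had the lowest percentiles of their group, 480.2 and 463 units, and tumours 1 and 3 the highest, 877 and 851 units. Its part in the differences between Ctnnb1 tumours was not tested. Over the Ha-ras tumours the percentiles were 1248, 707 and 459 units for replicates 1 to 3, against 510.3 to 635 units in the untreated controls. Ha-ras tumours 1 and 2, where miR-183 was detected, were brighter than every untreated control, and tumour 3 was dimmer. Before scaling, the brighter miR-96 probe fell in the same order, at 115, 86.7 and 38.1 units in Ha-ras tumours 1 to 3.

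The other miRNAs of the same seed, hairpin or chromosome stretch gave no further signal of the locus. The opposite strand of the miR-183 hairpin, miR-183*, had 4 probes and was detected on 0 of 16 arrays. miR-1271, miR-182* and miR-96* were not measured here. Of 5 listed miRNAs from the same stretch of chromosome 6, 2 were detected, miR-29a and miR-29b, both on all 16 arrays. Their hairpins lie 892922 bases or more from that of miR-183, and miR-29b is also encoded on another chromosome. Neither was called in the 4 comparisons. In Ha-ras tumours miR-29a had a log2 difference of -0.18 and miR-29b of 0.27 from untreated controls (limma adjusted p 0.426 and 0.185).

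Other miRNAs reported to repress Foxo1 were listed for comparison with miR-96 and miR-182. Of the 4, 3 were tested, and 29.2% of all 96 were called in Ha-ras tumours: miR-27a was 1.12 higher (log2, limma adjusted p 0.0146) and miR-139-5p 0.41 lower (log2 difference -0.41, adjusted p 0.0146) in Ha-ras tumours than in untreated controls. The call of miR-139-5p was lost with scaling on all mouse probes (-0.20, limma adjusted p 0.515) and with quantile normalization (-0.31, adjusted p 0.0557), while miR-27a kept its call under both. miR-223, which is also abundant in myeloid cells, was not called there. In Ctnnb1 tumours none of the 3 was called against phenobarbital controls. Of 11 miRNAs reported as raised in hepatocellular carcinoma, 6 were tested. In Ha-ras tumours 1 of them, the oncogenic miR-21, was called higher, with a log2 difference of 1.28 (limma adjusted p 0.00445), where 9.38% of all 96 were called higher. With scaling on all mouse probes miR-106b and miR-221 were called higher too. The list's median was 0.34 against -0.06 for all 96. In Ctnnb1 tumours 0 of the 6 were called against phenobarbital controls, where 0 of all 96 were called higher, with a median of 0.14 against -0.05 for all 96.

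By Pearson correlation of log2 levels over the 16 arrays, the miRNAs most like miR-96 among the other 95 tested were miR-221 at 0.647, miR-361 at 0.609, miR-146b at 0.589, miR-34a at 0.538 and miR-27a at 0.528. The arrays of a group share their condition, so these values include the differences between groups. Within Ctnnb1 tumours r with miR-96 was 0.44 for miR-221, 0.36 for miR-361, 0.04 for miR-34a and 0.04 for miR-27a. miR-146b was at the floor in every Ctnnb1 tumour and has no such value. Of the 5, miR-146b, miR-34a and miR-27a were called higher in Ha-ras tumours than in untreated controls, with log2 differences of 3.56, 1.97 and 1.12 (limma adjusted p 3.8e-08, 0.00845 and 0.0146). miR-146b was at the floor on 11 of the 16 arrays. miR-221 and miR-361 were not called there (limma adjusted p 0.0549 and 0.116), but were with scaling on all mouse probes and with quantile normalization.

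Markers of the cell types that a liver sample can hold were read beside these results. The hepatocyte miRNAs miR-122, miR-192 and miR-194 were detected on all 16 arrays, and 0 of 3 were called in either tumour against its controls. Their summed scaled signal was 19340 to 26820 units in Ha-ras tumours and 22160 to 23430 units in untreated controls, and 11180 to 22480 units in Ctnnb1 tumours and 19590 to 23050 units in phenobarbital controls. Summed over 5 miRNAs of endothelium and mesenchyme, the scaled signal was 539 to 702 units in Ha-ras tumours and 701 to 921 units in untreated controls, and 593 to 854 units in Ctnnb1 tumours and 931 to 947 units in phenobarbital controls. Of the 3 of them tested, 2 were called lower in Ha-ras tumours, miR-143 and miR-199a-3p, and 1 in Ctnnb1 tumours, miR-199a-3p. The other, miR-126-3p, weighs most in the sum, with a mean log2 level of 9.12 in Ha-ras tumours against 5.03 for miR-199a-3p. It was not called in Ha-ras or Ctnnb1 tumours (limma adjusted p 0.141 and 0.154). miR-143 was detected on 6 of 16 arrays and lay at the floor in every Ha-ras tumour. Over all 96 miRNAs 19 and 8 were called lower in these comparisons. The calls of miR-143 and miR-199a-3p were kept with scaling on the median and with quantile normalization. They were lost with scaling on all mouse probes, where 0 were lower in either comparison. The 6 leukocyte miRNAs summed to 180.2 to 527 units in Ha-ras tumours and 254 to 522 units in untreated controls, and to 294 to 605 units in Ctnnb1 tumours and 411 to 461 units in phenobarbital controls, with 0 of 3 called in either tumour. Of the erythroid list 0 of 2 were called. Of 5 miRNAs of sensory and neural cells, where the cluster is best known, 4 were detected on no array, and miR-7a, the other, was not called. In the endocrine list miR-375 was detected on no array either. Of the 5 members of the epithelial miR-200 family, miR-200a and miR-200b were detected, on 2 and 5 arrays. The family summed to 4.47 to 37.1 units in Ctnnb1 tumours and 39.9 to 56.4 units in phenobarbital controls, and to 11.4 to 32.9 units in Ha-ras tumours and 16.7 to 73.5 units in untreated controls. The part of these cells in the miR-96 values was not tested.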

How the data were processed

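The members and lists were chosen with earlier results of these data known. Per the labels' protocols, 25 ng of total RNA was end-labelled with pCp-Cy3, and each sample had its own Agilent miRNA array. The deposited intensity is the background-subtracted spot signal of Agilent Feature Extraction 10.7.3.1, not normalised between arrays, per the file headers. Between 37.9% and 48.3% of an array's spots were at or below 0. The deposited log2 table of the authors (147 entries, lowest value -1) served as an alternative. Its scale was read from its values, R 2.14.1 is named in the submitters' processing notes, and the sources used here do not give its normalisation.

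Outlier and control spots were left out, and probe means were scaled to a common 75th percentile, taken per array over 117 mouse probes that every array detected. Percentiles before scaling were 386 to 1248 units. For tests across miRNAs values were floored at 24.8 units and averaged over probes in log2, and limma 3.58.1 (R 4.3.3) fitted 4 group means over 16 arrays and 96 miRNAs, with Benjamini-Hochberg adjustment at 0.05. Values at the floor have no spread, which lowers the fitted spread of such miRNAs. Because miR-183 and miR-182 did not enter the fit, all members were also compared by exact two-sided permutation of the scaled signal before the floor. The miRNAs named beside the members are those of the lists and the 5 most correlated with miR-96. The model was tested on simulated data, drawn without a floor or a detection filter. That test therefore does not cover the floored call of miR-96. Alternatives changed the scaling, background, probe summary, floor, filter, blocks and samples. The permutation of miR-96 and its single-probe fits were added after seeing the data. Replicate numbers were not used to pair samples in the main fit. Same-numbered samples of a tumour group and its controls correlated at -0.77 to 0.58 in their deviations from the group means. These values cannot show whether such samples share an animal.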

Additional observations from a re-analysis of the deposited data

How the results depend on the processing

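The call of miR-96 in Ha-ras tumours against untreated controls held under 10 of 18 settings. Its difference was above 0 under 18 of 18, a direction largely set in advance by the floor, where all 3 untreated controls lay. Besides the settings already given, the log2 difference missed the limma threshold with scaling on the median (0.90, adjusted p 0.0746), with no filter (0.93, adjusted p 0.274) and for probe A_54_P1331 alone (0.60, adjusted p 0.124). It was 0.27 with the higher floor, 0.31 with normexp, 0.96 with slide as a fixed block and 0.99 within slide 2. With the replicate block, on numbers not known to pair the samples, it was 0.93 (adjusted p 0.0509). Leaving out 1 replicate at a time gave 0.75 to 1.06. For Ctnnb1 minus Ha-ras tumours miR-96 gave -1.12 with scaling on all mouse probes and -0.71 with quantile normalization, and -0.68 to -0.35 without 1 replicate. In the floored limma fit the Ctnnb1 effect of miR-96 was above 0 and not called under 17 of 17 settings. A fit of miRNAs detected on all 16 arrays holds no miR-96, so it gives no value.

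The scaled signals near background depended on the processing, and the cause was not tested. With normexp, Ctnnb1 minus phenobarbital controls gave -8.91 units for miR-183, -1.02 for miR-96 and -10.9 for miR-182. Ha-ras minus untreated controls gave -10.1 for miR-182, Ctnnb1 minus Ha-ras tumours 5.38 for miR-182, and phenobarbital minus untreated controls 6.26 for miR-182. The normexp setting used an offset of 50 units, while array scaling factors ran from 0.488 in Ha-ras tumour 1 to 1.58 in phenobarbital control 4. The part of this offset in the normexp differences was not tested, and no order of levels is read from them. On the brighter probe alone, detected on no array, the difference of miR-182 was 3.37 units for Ctnnb1 minus phenobarbital controls (exact permutation p = 0.0167) and 3.73 units for Ha-ras minus untreated controls (exact permutation p = 0.1), with no order of levels read from either. The difference of miR-183 between Ctnnb1 and Ha-ras tumours lost p under 0.05 with median scaling (-8.45), normexp (-6.51), the brighter probe (-12.1), outlier spots kept (-8.51), the deposited log2 table (-3.68) and within slide 1 (-7.77), and ranged from -10.8 to -6.67 without 1 replicate. Between phenobarbital and untreated controls miR-183 turned with scaling on all probes (-0.37), quantile normalization (-0.24), the brighter probe (-0.75) and within slide 2 (-1.23), and ranged from -0.56 to 1.12 without 1 replicate. miR-182 turned with quantile normalization (0.34) and within slide 3 (0.38), and ranged from -1.50 to 0.84.

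Counts of miRNAs called moved by over 1.5 times as follows. For Ctnnb1 tumours against phenobarbital controls, 8 became 0 with scaling on all probes, 4 with median scaling, normexp or only miRNAs detected on all 16 arrays, 2 with the deposited table or the replicate block, 5 with no filter, 1 and 20 with slide as a fixed or random block, and 5 to 19 without 1 replicate. For Ha-ras tumours against untreated controls, 28 became 12 with scaling on all probes, 18 with normexp or no filter, 9 with the deposited table or slide fixed, 2 within slide 2, 14 with the replicate block, and 13 to 33 without 1 replicate. For Ctnnb1 against Ha-ras tumours, 29 became 15 with normexp, 6 with no filter, 19 for miRNAs detected on all arrays, 13 with only these groups, 8 with slide fixed, 5 within slide 1, 3 with the replicate block, and 5 to 29 without 1 replicate. Between the controls, 0 became 5 with the software's total gene signal or the deposited table, 1 with no filter, and 0 to 2 without 1 replicate. For the interaction, 2 became 1 with normexp or the deposited table, 4 with the brightest probe, slide random or the replicate block, 5 with the higher floor, 0 for miRNAs detected on all arrays, and 2 to 5 without 1 replicate. Signal over background limits miR-183 and miR-182, and at 3 arrays against 3 exact tests cannot go below 0.1.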
